A study of Mus musculus with 18 samples.

Results

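The 10 genes described here encode 6 fatty acid elongases (Elovl1, Elovl3, Elovl4, Elovl5, Elovl6 and Elovl7), the ceramide synthases Cers3 and Cers4, the fatty acid 2-hydroxylase Fa2h and the glucosylceramide synthase Ugcg. They were chosen by name with earlier results of these data known. They are 10 of the 23951 genes of the expression table, and all passed the filter on low values that left 12751 genes for testing. RNA was sequenced from 18 libraries of sorted ear epidermis, 3 mice in each of 6 groups, taken at day 7 after 4 daily intraperitoneal injections of 2 mg tamoxifen into 8-week-old mice of either sex. Mice 814, 815 and 817 were DKO* animals. They carried 2 floxed alleles of JunB (JunB f/f), 2 of c-Jun (c-Jun f/f), the K5-Cre-ERT transgene, in which the keratin 5 promoter drives an inducible recombinase, and the mT/mG reporter. Their deletion was mosaic, so that recombined cells turned green (GFP, mutant) beside non-recombined red cells (Tom, non-mutant) of the same ear. Control mice 810, 825 and 828 (Co) carried the K5-driven Cre and mT/mG with wild-type or heterozygous JunB and c-Jun, and the background of all mice was mixed. Cells negative for CD45 and high for CD49f were divided into CD34+ bulge hair follicle stem cells (HF-SCs) and CD34- basal keratinocytes (b-KCs). Each DKO* mouse therefore gave 4 libraries and each control mouse gave 2.

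Fatty acid elongases catalyse the first, rate-limiting step of a cycle in the endoplasmic reticulum that lengthens fatty acids, and each enzyme prefers substrates of a certain length and saturation. Ceramide synthases join the resulting acyl chains to a sphingoid base. In the epidermis, ultra-long-chain ceramides made with Elovl4 and Cers3 form the water barrier of the cornified layer after transport as glucosylceramides, which Ugcg makes, whereas Elovl3 and Fa2h are known from the sebaceous gland and the hair follicle.

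On the NCBIM37 (mm9) assembly, all 10 loci are annotated as protein-coding genes. Elovl4 lies on chromosome 9 (83672300 to 83699912, minus strand), Elovl1 on chromosome 4 (118100698 to 118105558, plus strand), Elovl3 on chromosome 19 (46206387 to 46210184, plus strand) and Elovl6 on chromosome 3 (129235304 to 129341413, plus strand). Cers3 is on chromosome 7 (73888390 to 73968578, plus strand), Cers4 on chromosome 8 (4493405 to 4526079, plus strand) and Fa2h on chromosome 8 (113869035 to 113917724, minus strand). The libraries hold no strand information, so reads of Elovl1 and of the opposite-strand gene Cdc20 cannot be told apart where they overlap, and neither can those of Elovl3 and Pitx3.

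c-Jun and JunB are subunits of the AP-1 transcription factor, and for this reason the start sites of the members were searched for its motif and for 4 others. RefSeq start-site windows of 250 bases before to 50 bases after a start (GRCm38.p6, another build than the expression values) were given for 8 of the 10 members, with 2 windows for Elovl1 and thus 9 in all. On either strand, the AP-1 motif TGACTCA was found in 0 of the 9 windows and in 5.20% of 32851 windows of the same length. The sterol response motif TCACNCCAC was found in 0 of 9 and in 1.24% of all windows, CCAAT in 3 of 9 and 37.4%, and the GC box GGGCGG in 6 of 9 and 35.7%. The cyclic AMP response element TGACGTCA was found in 1 of 9, that of Elovl5 from base 4 after the start, and in 1.79% of all windows. CCAAT and GC boxes share bases in the first Elovl1 window. The 250 bases before the start are given for a pair of genes that rose in mutant HF-SCs (Elovl4, Cers3) and a pair that fell in the b-KCs of DKO* mice (Elovl6, Cers4), with GC boxes in capitals. For Elovl5, 30 bases around the start are given, with TGACGTCA in capitals together with the last bases of a CCAAT box on the other strand.
Elovl4 (chr9:83806306-83806555, minus strand): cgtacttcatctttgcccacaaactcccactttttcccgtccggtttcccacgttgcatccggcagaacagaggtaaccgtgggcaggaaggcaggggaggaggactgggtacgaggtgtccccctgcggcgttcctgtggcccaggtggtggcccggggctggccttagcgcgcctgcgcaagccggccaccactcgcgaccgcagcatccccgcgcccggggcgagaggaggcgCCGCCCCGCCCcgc
Cers3 (chr7:66743254-66743503, plus strand): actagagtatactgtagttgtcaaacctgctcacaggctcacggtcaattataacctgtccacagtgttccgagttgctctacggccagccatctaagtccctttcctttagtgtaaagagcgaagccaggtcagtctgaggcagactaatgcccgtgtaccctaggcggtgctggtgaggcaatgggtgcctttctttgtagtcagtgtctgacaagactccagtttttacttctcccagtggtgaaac
Elovl6 (chr3:129532136-129532385, plus strand): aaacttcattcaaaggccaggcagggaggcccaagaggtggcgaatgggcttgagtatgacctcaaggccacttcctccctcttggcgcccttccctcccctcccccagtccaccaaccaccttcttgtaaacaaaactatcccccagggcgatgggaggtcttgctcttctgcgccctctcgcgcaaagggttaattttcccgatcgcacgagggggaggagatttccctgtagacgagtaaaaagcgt
Cers4 (chr8:4493155-4493404, plus strand): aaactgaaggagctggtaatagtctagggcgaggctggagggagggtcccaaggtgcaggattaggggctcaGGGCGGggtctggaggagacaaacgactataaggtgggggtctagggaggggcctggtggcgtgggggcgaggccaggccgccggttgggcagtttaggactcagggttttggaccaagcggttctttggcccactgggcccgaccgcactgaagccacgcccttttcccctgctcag
Elovl5 (chr9:77917350-77917379, plus strand): TGGctggccgcgccattgTGACGTCAcggt
The GC boxes of Elovl4 lie next to its start and overlap by 1 base, the box of Cers4 lies 178 bases before its start, and the printed bases of Cers3 and Elovl6 hold none of the 5 motifs. These matches are a description of letters and not of binding.

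The values are FPKM, fragments scaled to transcript length and to the number of mapped reads, so that they can be compared between genes. From the steps of low values, libraries held about 16502400 to 26259200 reads, at which 3 reads on a transcript of 1 kb were worth 0.114 to 0.182 FPKM, a floor that covers counting error only. The lowest member values, Elovl3 and Fa2h in HF-SC GFP of mouse 817, still rested on about 27.0 and 35.0 reads. Within each cell type, the deleted genes Jun and Junb were lowest in the 3 GFP libraries, intermediate in Tom and highest in Co, with no overlap. Cd34, the gate of the sort, had 639.8 to 889 FPKM in control HF-SCs, 160.6 to 228 FPKM in mutant and 259.6 to 319 FPKM in non-mutant HF-SCs, and at most 2.53 FPKM in b-KCs. The bulge marker Krt15 had a listed value of 0 in the control HF-SCs of mouse 828. Without it, the other 6 bulge markers summed to 1071 to 1359 FPKM in control, 301 to 423 FPKM in mutant and 349 to 498 FPKM in non-mutant HF-SCs, and to 44.8 to 52.2 FPKM in b-KC Co. Both DKO* HF-SC groups thus lay below all controls in Cd34 and in this sum, though far above control b-KCs, and the part of this in the HF-SC results was not tested. The basal marker Krt14 had a listed value of 0 in 1 b-KC GFP and 2 b-KC Tom libraries, and the other 5 basal markers summed to 3086 to 8260 FPKM over all libraries. Leukocyte markers (8 genes) summed to at most 31.5 FPKM, fibroblast markers (6) to at most 120.5 FPKM in HF-SCs and 6.16 FPKM in b-KCs, melanocyte markers (4) to 2.11 to 14.1 FPKM, and the 5 adipocyte markers were under 1 FPKM in each library. Mouse 817 stood apart from the other DKO* mice in several member genes, and its part is given beside each result that rests on it. In sorted bulk cells, a different share of cells that express a gene and a different amount of its RNA per cell cannot be told apart.

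Control HF-SCs and control b-KCs differed in most members. A member was called at an adjusted p under 0.05 in limma on log2(FPKM + 1), with Benjamini-Hochberg adjustment over all 12751 genes, and fold changes on this scale understate those of low genes. In HF-SC Co against b-KC Co, 8 of the 10 members were called, 1 higher and 7 lower, where 51.9% of all genes tested were called, 24.6% higher and 27.3% lower. The median log2 difference of the members was -1.34 beside -0.06 over all genes tested. Suprabasal keratinocyte markers summed to 7232 to 8916 FPKM in b-KC Co and 828 to 1060 FPKM in HF-SC Co libraries. Markers of sebocytes, cells of the sebaceous gland, summed to 327 to 434 and 37.5 to 42.8 FPKM in these groups. Upper follicle markers summed to 469 to 561 and 88.8 to 93.2 FPKM. The part of these cell types in the differences between the control groups was not tested. Elovl5, which lengthens polyunsaturated fatty acids, had 51.7, 44.5 and 39.4 FPKM in HF-SC Co libraries and 19.4, 15.1 and 13.2 FPKM in b-KC Co of mice 810, 825 and 828. The groups did not overlap, and Elovl5 was the 1 member called higher in HF-SCs (log2 difference 1.46 ± 0.23 SE, adjusted p = 7.71e-05).

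Elovl4, the elongase of ultra-long-chain fatty acids, was the most abundant elongase in each b-KC Co library. It had 149, 143 and 117 FPKM in b-KC Co and 16.8, 24.6 and 15.2 FPKM in HF-SC Co libraries, a 7.22-fold difference of the means with no overlap (log2 difference -2.81 ± 0.38, adjusted p = 1.81e-05). Fa2h, which places a hydroxyl group on fatty acids before they enter ceramides, had 80.7, 34.8 and 32.8 FPKM in b-KC Co and 2.21, 0.945 and 2.19 FPKM in HF-SC Co libraries, 27.7-fold apart (log2 difference -4.09 ± 0.77, adjusted p = 3.87e-04). Each b-KC Co library thus lay above each HF-SC Co library in both genes. Elovl3, an elongase of the very long saturated and monounsaturated fatty acids of sebum, was likewise at 24.1 to 48.5 FPKM in b-KC Co and at 0.655 to 2.05 FPKM in HF-SC Co libraries (log2 difference -3.91 ± 0.82, adjusted p = 9.13e-04). Elovl6, which extends long-chain fatty acids such as palmitate, was 5.58-fold lower in HF-SC Co (log2 difference -2.36 ± 0.29, adjusted p = 8.06e-06) and Elovl1, an elongase of very long saturated chains, was 2.81-fold lower (log2 difference -1.47 ± 0.22, adjusted p = 5.29e-05).

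Both ceramide synthases were lower in control HF-SCs than in control b-KCs. Cers3, the synthase of ultra-long-chain ceramides, had a mean of 7.22 ± 0.89 FPKM in HF-SC Co libraries and 13.1 ± 0.40 FPKM in b-KC Co (SD, n = 3 each). Cers4, a synthase of long-chain and very long-chain ceramides, had 20.6 ± 1.10 FPKM in HF-SC Co libraries and 51.1 ± 17.1 FPKM in b-KC Co (SD, n = 3 each). The call of Cers3 (log2 difference -0.78, adjusted p = 0.00476) was lost without mouse 810 (adjusted p = 0.0571). That of Cers4 (log2 difference -1.22, adjusted p = 0.0300) was lost without mouse 810, 825 or 828 (adjusted p = 0.166, 0.112 and 0.0610) and with no filter on low values (adjusted p = 0.0519). Elovl7, another elongase of saturated chains, had 33.9 FPKM in HF-SC Co libraries and 33.7 FPKM in b-KC Co and was not called. Ugcg was not called either (log2 difference -0.57, adjusted p = 0.0771), but passed when the mouse was a random block (adjusted p = 0.0159) or a fixed block (adjusted p = 0.0023), in a fit of these groups alone (adjusted p = 0.0107) and without mouse 817 (adjusted p = 0.00458).

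**Figure D1:**
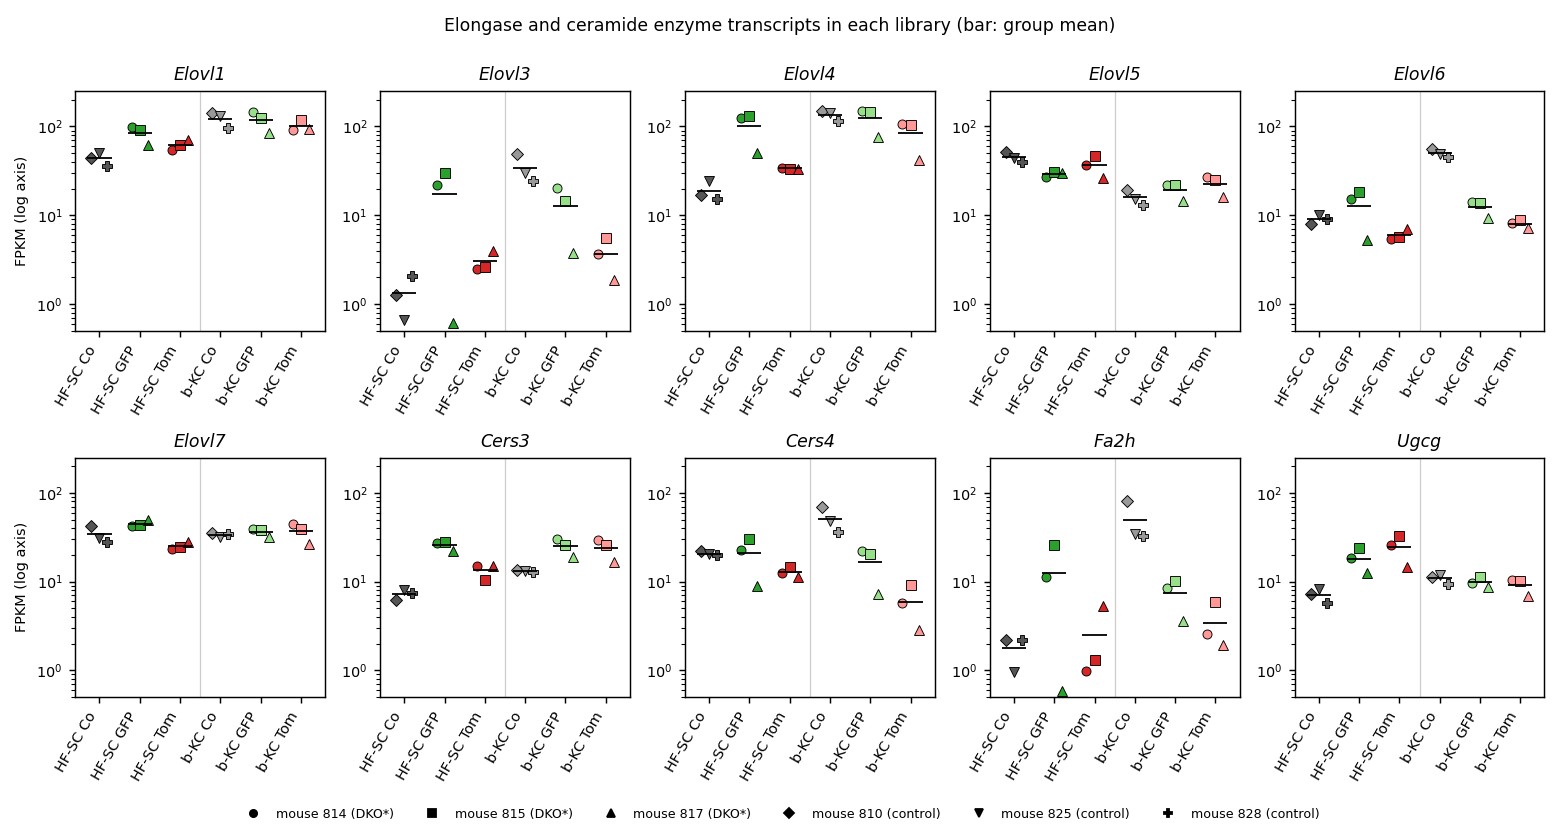
FPKM of each of the 10 members (log axis) in the 6 groups, 1 point per library, with the point shape giving the mouse and the bar the group mean. Elovl3 and Fa2h span the widest range, with the HF-SC GFP library of mouse 817 at 0.604 and 0.591 FPKM while the other HF-SC GFP libraries are at 11.3 FPKM or above.

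In mutant HF-SCs, Elovl4, Cers3, Elovl1, Ugcg and Elovl3 rose, and no member was called lower. Of the 10 members, 5 were called in HF-SC GFP against HF-SC Co, all of them higher, where 38.5% of all genes tested were called, 18.5% higher and 20.0% lower. The members' median log2 change was 1.07 beside -0.05 over all genes tested. Elovl4 had 123, 132 and 50.2 FPKM in HF-SC GFP libraries of mice 814, 815 and 817, against 15.2 to 24.6 FPKM in HF-SC Co libraries. All mutant libraries lay above all controls, with mouse 817 the lowest of them, and the means differed 5.40-fold (log2 change 2.28 ± 0.38, adjusted p = 2.44e-04).

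Cers3 had 27.0, 27.8 and 22.4 FPKM in HF-SC GFP libraries and 6.26, 8.0 and 7.40 FPKM in HF-SC Co libraries. It was the member with the smallest adjusted p in this comparison, 3.57-fold higher with no overlap (log2 change 1.70 ± 0.20, adjusted p = 1.13e-05). Ugcg, which adds glucose to ceramide, had 18.2, 23.8 and 12.5 FPKM in HF-SC GFP libraries and 7.15, 8.25 and 5.73 FPKM in HF-SC Co libraries (log2 change 1.22 ± 0.26, adjusted p = 0.00167). Elovl1 had 98.5, 92.1 and 61.3 FPKM in HF-SC GFP libraries and 44.4, 50.3 and 36.1 FPKM in HF-SC Co libraries (log2 change 0.91 ± 0.22, adjusted p = 0.00426). Neither gene's groups overlapped. The calls of Elovl1, Elovl4, Cers3 and Ugcg were held with each mouse left out in turn, with adjusted p of at most 0.0453.

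Elovl3 depended on the mouse. It had 21.7 and 29.7 FPKM in HF-SC GFP libraries of mice 814 and 815, above the 0.655 to 2.05 FPKM of HF-SC Co, and 0.604 FPKM in mouse 817, below all controls. Its call (log2 change 2.20 ± 0.82, adjusted p = 0.0434) was held in 1 of the 6 fits that left a mouse out, the fit without mouse 817 (log2 change 3.55, adjusted p = 4.05e-07). Without mouse 810, 814, 815, 825 or 828 the adjusted p was 0.0985, 0.214, 0.274, 0.140 and 0.0771. It was also lost with a pseudocount of 0.1 (adjusted p = 0.0605), with no filter (adjusted p = 0.075) and in a fit of these groups alone (adjusted p = 0.114).

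Fa2h and Elovl6 showed the same order of mice without being called. Fa2h had 11.3, 25.5 and 0.591 FPKM in HF-SC GFP libraries of mice 814, 815 and 817 (log2 change 1.57, adjusted p = 0.120), and it was called without mouse 817 (log2 change 2.74, adjusted p = 9.27e-05). Elovl6 had 15.2, 18 and 5.30 FPKM beside 7.91 to 9.98 FPKM in HF-SC Co libraries (log2 change 0.33, adjusted p = 0.4), and was called without mouse 817 (log2 change 0.82, adjusted p = 1.27e-04). Mouse 817 thus lay below the HF-SC Co range in Elovl3, Fa2h and Elovl6, and also in Cers4, at 8.97 FPKM beside 19.7 to 21.8 FPKM. Elovl5 had 27.1 to 30.7 FPKM in HF-SC GFP libraries, below each HF-SC Co library (log2 change -0.60, adjusted p = 0.0503). Elovl5 passed with the mouse as a random block (adjusted p = 0.0327), without mouse 817 (adjusted p = 0.00549), after rescaling of the libraries (adjusted p = 0.047) and in a fit of these groups alone (adjusted p = 0.0106). Elovl7 had 42.5 to 48.9 FPKM beside 28.1 to 42.8 FPKM in HF-SC Co libraries (log2 change 0.41, adjusted p = 0.0761) and was called without mouse 810 (adjusted p = 0.0258).

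The summed markers of suprabasal keratinocytes were higher in these libraries, though not each marker. The 7 of 8 listed markers in the table summed to 828 to 1060 FPKM in HF-SC Co libraries, 1805 to 3558 FPKM in HF-SC GFP libraries and 1714 to 2125 FPKM in HF-SC Tom libraries, none of them under 1 FPKM throughout a group. Krtdap and Krt1 carried the sum. The mean of Krtdap was 427.6 FPKM in control, 1599 FPKM in mutant and 1158 FPKM in non-mutant HF-SCs, and that of Krt1 was 71.2, 593 and 355 FPKM. Ivl had the largest fold difference between mutant and control HF-SCs among these markers, at means of 4.07, 42.6 and 10.4 FPKM, and Krt10 was also higher in mutant than in control HF-SCs (446 and 283.6 FPKM). Lor (7.17 and 5.86 FPKM), Dsg1a (64.8 and 55.2 FPKM) and Sbsn (99.96 and 101.6 FPKM) had no clearly higher mean in mutant than in control HF-SCs, and in non-mutant HF-SCs the means of Lor, Dsg1a, Sbsn and Krt10 were lower than in controls. The 4 upper follicle markers summed to 88.8 to 93.2 FPKM in HF-SC Co libraries and 142 to 269 FPKM in HF-SC GFP libraries. Krt79 (27.2 and 75.8 FPKM) and Plet1 (43.9 and 131 FPKM) had the higher means in mutant HF-SCs, whereas Lrig1 had 19.4 and 17.2 FPKM and Gata6 was under 1 FPKM in all HF-SC GFP libraries. The part of these markers, and of the lower bulge markers, in the changes of Elovl1, Elovl4, Cers3 and Ugcg was not tested.

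**Figure D2:**
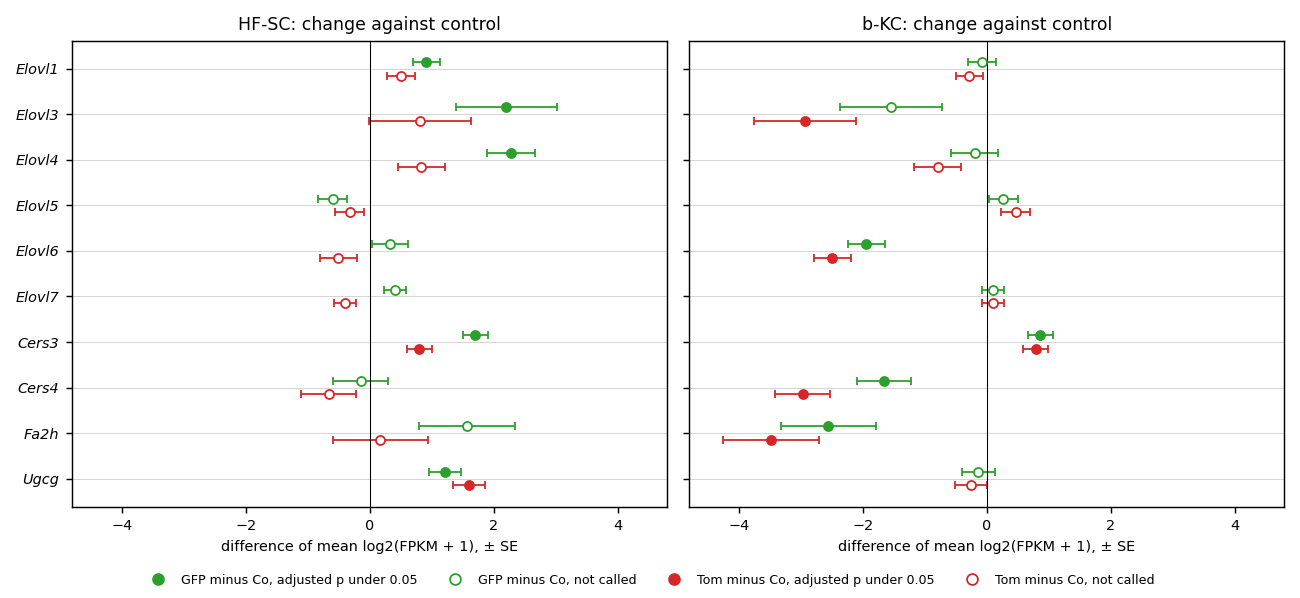
Difference of mean log2(FPKM + 1) between each DKO* population and its Co counterpart for the 10 members, with bars of 1 SE; filled points are called at an adjusted p under 0.05. Cers3 lies to the right of 0 and is called in all 4 comparisons, while Elovl6, Cers4 and Fa2h are called to the left of 0 in b-KCs and are not called in HF-SCs.

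Elovl4 took a larger share of the elongase transcripts in mutant than in control HF-SCs. Summed over the 6 elongases, HF-SC Co libraries had 129.9 to 165 FPKM, HF-SC GFP libraries 197 to 346 FPKM and b-KC Co libraries 331 to 448 FPKM. Elovl5 and Elovl1 were the most abundant elongases of HF-SC Co, at a mean of 29.8% and 28.7% of the sum, with Elovl5 first in mice 810 and 828 and Elovl1 in mouse 825. In HF-SC GFP, Elovl4 was first in mice 814 and 815 and Elovl1 in mouse 817. The share of Elovl4 was 10.2% to 15.3% in HF-SC Co, 25.6% to 38.2% in HF-SC GFP and 33.2% to 35.9% in b-KC Co. The share of Elovl5 was 27.6% to 31.4%, 8.27% to 15.4% and 3.77% to 4.33% in these groups. Elovl1 was the most abundant elongase in each HF-SC Tom library. These shares are descriptions without a test.

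**Figure D3:**
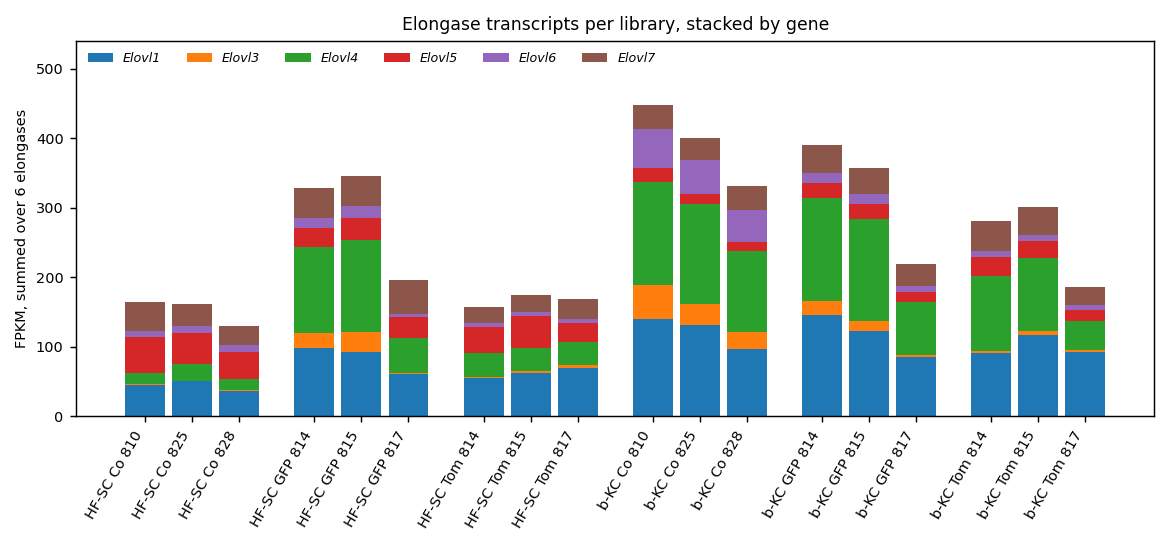
Stacked FPKM of the 6 elongases in each library, by gene. Elovl4 takes 12.4% of the sum on average in HF-SC Co libraries, 33.8% in HF-SC GFP and 34.8% in b-KC Co.

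In non-mutant HF-SCs of the same ears, Ugcg and Cers3 rose. These were 2 of the 10 members, where 44.4% of all genes tested were called in HF-SC Tom against HF-SC Co, 22.3% higher and 22.1% lower. The members' median log2 change was 0.34 beside -0.04 over all genes. Ugcg had 25.5, 32.7 and 14.7 FPKM in mice 814, 815 and 817, all above HF-SC Co (log2 change 1.60 ± 0.26, adjusted p = 1.51e-04). HF-SC Tom had the highest mean of Ugcg among the 6 groups, 24.3 ± 9.09 FPKM (SD, n = 3), and its libraries overlapped those of HF-SC GFP. Cers3 had 15, 10.4 and 14.9 FPKM, also all above HF-SC Co (log2 change 0.80 ± 0.20, adjusted p = 0.00520). Elovl4 had 34.3, 33.2 and 33.6 FPKM, above the 15.2 to 24.6 FPKM of HF-SC Co but not called (log2 change 0.83, adjusted p = 0.0884).

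Without mouse 817 a further 4 members were called in HF-SC Tom, namely Elovl4 (adjusted p = 8.29e-04), Elovl6 (log2 change -0.60, adjusted p = 0.00114), Elovl7 (log2 change -0.47, adjusted p = 0.0128) and Cers4 (log2 change -0.57, adjusted p = 0.0466). No share of all genes called was worked out for that fit. A fit of these groups alone called Elovl4 (adjusted p = 0.0165) and Cers4 (adjusted p = 0.0157) beside Ugcg and Cers3. The 11 endothelial markers summed to 54.5 to 87.2 FPKM in HF-SC Co libraries, 1.84 to 31.1 FPKM in HF-SC GFP libraries and 451 to 1495 FPKM in HF-SC Tom libraries, where none of them was under 1 FPKM in all libraries. Their part in the HF-SC Tom values was not tested, nor was that of the bulge markers, which were lower than in controls.

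In b-KCs of DKO* mice, Elovl6, Cers4 and Fa2h fell and Cers3 rose. In b-KC GFP against b-KC Co, 1 member was called higher and 3 lower, where 41.6% of all genes tested were called, 20.3% higher and 21.3% lower. In b-KC Tom against b-KC Co, 1 was called higher and 4 lower, where 45.9% were called, 22.6% higher and 23.3% lower. The members' median log2 change was -0.17 for b-KC GFP and -0.54 for b-KC Tom, beside -0.03 and -0.02 over all genes tested. Both comparisons share the Co libraries.

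Elovl6 had 55.9, 48.3 and 45.7 FPKM in b-KC Co of mice 810, 825 and 828. It had 14.2, 13.8 and 9.27 FPKM in b-KC GFP and 8.26, 8.82 and 7.10 FPKM in b-KC Tom of mice 814, 815 and 817. Each DKO* library lay below each control, and the means were 4.02-fold lower in GFP (log2 change -1.94 ± 0.29, adjusted p = 1.83e-04) and 6.20-fold lower in Tom (log2 change -2.49 ± 0.29, adjusted p = 1.36e-05). Both calls were held with each mouse left out.

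Cers4 had 69.6, 48.0 and 35.8 FPKM in b-KC Co, 22.2, 20.4 and 7.17 FPKM in b-KC GFP and 5.78, 9.09 and 2.87 FPKM in b-KC Tom. Neither DKO* group overlapped Co, and the means were 3.08-fold lower in GFP (log2 change -1.66 ± 0.44, adjusted p = 0.00795) and 8.65-fold lower in Tom (log2 change -2.97 ± 0.44, adjusted p = 8.79e-05). Fa2h had 8.44, 10.2 and 3.61 FPKM in b-KC GFP and 2.54, 5.88 and 1.91 FPKM in b-KC Tom, against 32.8 to 80.7 FPKM in b-KC Co. It was 6.67-fold lower in GFP (log2 change -2.56 ± 0.77, adjusted p = 0.0156) and 14.4-fold lower in Tom (log2 change -3.48 ± 0.77, adjusted p = 0.00193). The call of Fa2h in b-KC GFP was lost without mouse 810 (adjusted p = 0.0768) or 814 (adjusted p = 0.0527).

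Elovl3 had 20.0, 14.6 and 3.76 FPKM in b-KC GFP and 3.69, 5.53 and 1.86 FPKM in b-KC Tom, against 24.1 to 48.5 FPKM in b-KC Co. It fell in Tom (log2 change -2.93 ± 0.82, adjusted p = 0.00856), whereas in GFP it was called only without mouse 817 (log2 change -0.90, adjusted p = 0.0163) and had an adjusted p of 0.139 with all mice. Cers3 went the other way. It had 30.5, 26.1 and 18.7 FPKM in b-KC GFP and 29.2, 25.9 and 16.7 FPKM in b-KC Tom, all above the 12.7 to 13.5 FPKM of b-KC Co (log2 change 0.87 ± 0.20, adjusted p = 0.00388 in GFP and 0.79 ± 0.20, adjusted p = 0.00549 in Tom). Cers3 was the member called in the same direction in all 4 DKO* populations, and each of these calls was held with each mouse left out.

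The most abundant members of b-KCs were not called. Elovl4 had 148, 146 and 76.2 FPKM in b-KC GFP and 108, 104.5 and 41.9 FPKM in b-KC Tom, against 117 to 149 FPKM in b-KC Co, with mouse 817 the lowest in both fractions (adjusted p = 0.706 and 0.101). Elovl1 had 84.5 to 146 FPKM in b-KC GFP and 90.9 to 117 FPKM in b-KC Tom, within or near the 96.9 to 140.2 FPKM of b-KC Co (adjusted p = 0.808 and 0.315). Elovl7 and Ugcg were not called in either fraction or without any mouse. Elovl5 was called higher only without mouse 817, in b-KC GFP (log2 change 0.46, adjusted p = 0.0234) and also b-KC Tom (log2 change 0.68, adjusted p = 0.00253).

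The mutant and non-mutant fractions came from the same mice and were compared directly. In HF-SC GFP against HF-SC Tom, 3 of the 10 members were called, all higher in GFP, where 8.63% of all genes tested were called, 2.83% higher and 5.80% lower. They were Elovl4 (log2 difference 1.45 ± 0.38, adjusted p = 0.0247), Elovl7 (0.81 ± 0.18, adjusted p = 0.00685) and Cers3 (0.90 ± 0.20, adjusted p = 0.00932). The 11 endothelial markers summed to 1.84 to 31.1 FPKM in HF-SC GFP and 451 to 1495 FPKM in HF-SC Tom libraries. Their part in the differences between these fractions was not tested. Elovl7 had 42.5, 43.0 and 48.9 FPKM in GFP and 23.2, 24.2 and 28.0 FPKM in Tom of mice 814, 815 and 817, and HF-SC Co at 28.1 to 42.8 FPKM overlapped GFP but not Tom. Within each of the 3 mice, Elovl4, Elovl7 and Cers3 were higher in GFP than in Tom, and 1 member, Ugcg, was lower. With a fixed block for each mouse, fitted on these fractions alone, Elovl7 was called while Elovl4 (adjusted p = 0.0576) and Cers3 (adjusted p = 0.0624) were not, and without the block the same fit gave 0.0972 and 0.0596. A random block for the mouse called Elovl6 too (log2 difference 0.83, adjusted p = 0.0416).

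The calls between the HF-SC fractions depended on the mice. Elovl4 was lost without mouse 814 (adjusted p = 0.232) or 815 (adjusted p = 0.35), Elovl7 without mouse 814 (adjusted p = 0.0769) or 815 (adjusted p = 0.144) and Cers3 without mouse 815 (adjusted p = 0.304). Without mouse 817, 9 members were called, with Elovl3 (log2 difference 2.90, adjusted p = 1.09e-05), Fa2h (3.09, adjusted p = 1.60e-04), Elovl6 (1.43, adjusted p = 3.28e-06), Cers4 (0.92, adjusted p = 0.0189) and Elovl1 (0.70, adjusted p = 0.0203) higher in GFP and Elovl5 lower (-0.51, adjusted p = 0.0494). No share of all genes called was worked out for that fit. In mouse 817 each of these named genes lay the other way. Its GFP and Tom libraries had 0.604 and 3.98 FPKM of Elovl3, 0.591 and 5.32 FPKM of Fa2h, and 5.30 and 7.04 FPKM of Elovl6. They had 8.97 and 11.1 FPKM of Cers4, 61.3 and 69.8 FPKM of Elovl1, and 30.3 and 26.05 FPKM of Elovl5.

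In b-KC GFP against b-KC Tom, 0 of the 10 members were called by limma and 1 of them, Cers4, had an unadjusted p under 0.05 (log2 difference 1.31 ± 0.44, adjusted p = 0.177). Of all genes tested, 1.71% were called, 1.19% higher and 0.518% lower. Within each of the 3 mice, 6 of the 10 members (Cers3, Cers4, Elovl3, Elovl4, Elovl6 and Fa2h) were higher in GFP than in Tom and 1, Elovl5, was lower. Cers4 was called with the mouse as a random block (adjusted p = 0.027), as a fixed block (adjusted p = 0.0243) and without mouse 817 (adjusted p = 0.00359). Elovl3 was called with the fixed block (log2 difference 1.39, adjusted p = 0.0491) and without mouse 817 (1.71, adjusted p = 0.00472), and Elovl6 without mouse 817 (0.65, adjusted p = 0.0113).

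At an adjusted p under 0.01 with a log2 change of 2 or more in size, 1 member remained in HF-SC GFP, Elovl4, where 3.07% of all genes passed, and 0 in HF-SC Tom and b-KC GFP, where 4.09% and 1.87% passed. In b-KC Tom 4 members passed, Elovl3, Elovl6, Cers4 and Fa2h, where 2.75% of all genes did, and in HF-SC Co against b-KC Co 4 passed, Elovl3, Elovl4, Elovl6 and Fa2h, where 5.65% did. Between GFP and Tom, 0 members passed in HF-SCs and in b-KCs, where 1.98% and 0.0863% of all genes did.

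Whether the changes differed between cell types was tested by interaction terms, the change from Co in HF-SCs minus that in b-KCs. For GFP, 5 of the 10 members were called, where 12.5% of all genes tested were called, 7.31% higher and 5.22% lower. They were Fa2h (4.12 ± 1.09, adjusted p = 0.0208), Elovl3 (3.75 ± 1.15, adjusted p = 0.0442), Elovl4 (2.48 ± 0.54, adjusted p = 0.00729), Elovl6 (2.27 ± 0.42, adjusted p = 0.00232) and Ugcg (1.36 ± 0.37, adjusted p = 0.0240), all with the more positive change in HF-SCs. For Tom, 5 members were called as well, where 15.8% of all genes were called, 10.3% higher and 5.58% lower. These were Elovl3 (3.74 ± 1.15, adjusted p = 0.0372), Fa2h (3.66 ± 1.09, adjusted p = 0.0313), Cers4 (2.31 ± 0.62, adjusted p = 0.0194), Elovl6 (1.99 ± 0.42, adjusted p = 0.00403) and Ugcg (1.85 ± 0.37, adjusted p = 0.00271). Elovl6 was called in both terms with each mouse left out, and Ugcg in the Tom term. By the stricter rule, Elovl4 and Elovl6 passed in the GFP term and 0 members in the Tom term, where 0.863% and 1.98% of all genes passed. Both terms share the Co libraries.

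Other interaction calls were less stable. In the GFP term, Elovl3, Fa2h and Ugcg were held only in the fit without mouse 817 (adjusted p = 1.16e-05, 5.89e-05 and 5.10e-04), and their adjusted p without another mouse was 0.0945 to 0.225, 0.0597 to 0.105 and 0.0646 to 0.104. Elovl4 was lost without mouse 815 (adjusted p = 0.0607). At a pseudocount of 0.1, Elovl3 and Fa2h were lost in the GFP term (adjusted p = 0.0739 and 0.0525) and in the Tom term (adjusted p = 0.0523 and 0.0695). In the Tom term, Elovl3 was held only without mouse 817 (adjusted p = 4.81e-05), against 0.0745 to 0.148 without another mouse. Fa2h was lost without mouse 810, 814, 825 or 828 (adjusted p = 0.125, 0.0851, 0.0953 and 0.0721) and Cers4 without mouse 810, 814 or 825 (adjusted p = 0.0925, 0.0652 and 0.0678). A random block for the mouse gave 9 called members in the GFP term and 8 in the Tom term, with no share of all genes called worked out for that fit. The block's additions were Elovl1 (adjusted p = 0.0157), Elovl5 (-0.86, adjusted p = 0.0225), Cers3 (adjusted p = 0.0225) and Cers4 (adjusted p = 0.0258) for GFP, and Elovl1 (adjusted p = 0.0446), Elovl4 (adjusted p = 0.00816) and Elovl5 (-0.79, adjusted p = 0.0323) for Tom.

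Elovl3, Fa2h, Elovl6 and Cers4 had their highest mean in b-KC Co, and so did Elovl1 and Elovl4. Markers of sebocytes, the lipid-filled cells of the sebaceous gland, were highest there too. The 8 markers (Scd1, Scd3, Mc5r, Cidea, Awat1, Awat2, Dgat2l6, Soat1) summed to 327 to 434 FPKM in b-KC Co, 60.8 to 123 FPKM in b-KC GFP and 36.3 to 69.7 FPKM in b-KC Tom. In HF-SCs, the sum was 37.5 to 42.8 FPKM in Co, 21.2 to 53.5 FPKM in Tom, and 113, 222 and 34.8 FPKM in GFP of mice 814, 815 and 817. The HF-SC GFP library of mouse 817, lowest in Elovl3 and Fa2h, was therefore also the lowest of its group in this sum. Scd1, a desaturase that keratinocytes express too, made up most of the sum, at 277 to 366 FPKM in b-KC Co. Scd3, Mc5r, Awat1, Awat2 and Dgat2l6 were under 1 FPKM in all HF-SC Co and HF-SC Tom libraries, and Scd3, Mc5r and Dgat2l6 in all GFP libraries of either cell type. The summed suprabasal and upper follicle markers were lower in each b-KC library of DKO* mice than in b-KC Co, but not each marker was. The suprabasal sum was 7232 to 8916 FPKM in b-KC Co, 4995 to 6977 FPKM in b-KC GFP and 3945 to 7030 FPKM in b-KC Tom, and the upper follicle sum was 469 to 561, 251 to 466 and 131 to 173 FPKM. Krt10 (2914 FPKM on average in Co, 1005 in GFP and 776 in Tom), Dsg1a (303, 60.7 and 52.1 FPKM) and Krt79 (367, 177 and 42.7 FPKM) carried these differences. Krtdap (3321, 3973 and 3354 FPKM) and Krt1 (978, 1011 and 1380 FPKM) were not lower on average. Plet1 had 92.4 to 121 FPKM in b-KC Co and 142 to 216 FPKM in b-KC GFP libraries, which lay above all controls. The part of these cell types in the changes of the members was not tested.

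**Figure D4:**
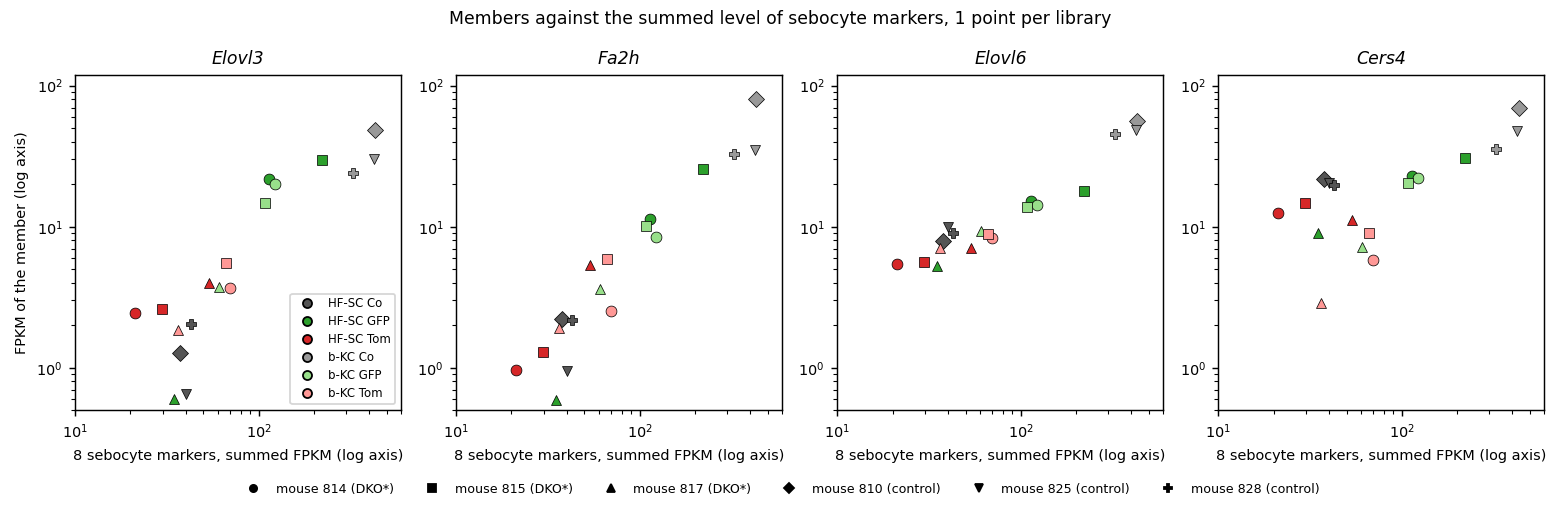
FPKM of Elovl3, Fa2h, Elovl6 and Cers4 against the summed FPKM of 8 sebocyte markers (both axes log), 1 point per library, coloured by group and shaped by mouse. The b-KC Co libraries lie at the top right of each panel, at 327 to 434 FPKM of the marker sum, and the HF-SC GFP library of mouse 817 lies at 34.8 FPKM.

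Over the 18 libraries, the members fell into different patterns. These correlations describe libraries that share mice and groups and carry no test. Elovl3 and Fa2h had a Pearson r of 0.951 on the log2 scale, Elovl1 and Elovl4 0.933, and Elovl6 and Fa2h 0.931, while Elovl1 and Elovl5 had an r of -0.736. Among all genes tested, those most like Elovl4 were Pnpla1 (r = 0.978), Gm9696 (0.974) and Me1 (0.969), and those most like Elovl1 included Mvd (0.981) and Fam89a (0.968). Rdh1 (0.954) and Soat1 (0.953) were most like Elovl3, and Soat1 (0.963), Scd1 (0.963) and Panx3 (0.957) were most like Fa2h, so that 2 genes of the sebocyte list are among them. Krt78 (0.969), Otop3 (0.962) and Psapl1 (0.961) were most like Elovl6. Mboat2 (0.964), Acot1 (0.935) and Pcdh1 (0.933) were most like Cers4, and Atp2c2 (0.969), Galnt6 (0.968) and Rgs20 (0.959) were most like Cers3. Elovl5 was most like Cd47 (0.952) and Glt8d1 (0.951). Ugcg and Elovl7 had no close match, with a highest r of 0.869 (Qsox1, Wipi1) and 0.760 (Rab21).

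Most listed genes acting next to the members in barrier lipid formation rose in mutant HF-SCs. The lists were, like the members, chosen with earlier results of these data known. Of 9 genes of barrier ceramide formation, 8 were called higher and 0 lower in HF-SC GFP, where 18.5% of all genes tested were called higher and 20.0% lower, with a median log2 change of 1.79 beside -0.05 over all genes. The summed suprabasal markers were higher in the same libraries (828 to 1060 FPKM in Co and 1805 to 3558 FPKM in GFP), and their part in the changes of this list was not tested. In HF-SC Tom 3 were called higher and 0 lower (22.3% and 22.1% of all genes), with a median of 0.65 beside -0.04. In b-KC GFP 1 was called higher and 2 lower (20.3% and 21.3% of all genes), with a median of -0.62 beside -0.03, and in b-KC Tom also 1 and 2 (22.6% and 23.3%), with a median of -0.52 beside -0.02. The b-KC counts with all mice are near or below those shares. With each mouse left out in turn, an alternative chosen after seeing the data, 5 to 8 of the 9 genes were called higher in HF-SC GFP and 1 to 6 in HF-SC Tom, with 8 and 6 without mouse 817. In b-KC GFP 0 to 3 were called higher and 1 to 3 lower, and in b-KC Tom 0 to 2 higher and 2 lower. Without mouse 817 the b-KC medians were -0.35 in GFP and -0.27 in Tom. No share of all genes called was worked out for these fits. Tgm1, the transglutaminase that crosslinks the cornified envelope, rose from 1.84 FPKM in HF-SC Co libraries to 31.0 FPKM in HF-SC GFP libraries (log2 change 3.49 ± 0.51, adjusted p = 8.12e-05) and was also called higher in the other 3 populations, though each of those calls was lost in at least 2 of the 6 fits that left a mouse out. Abca12, the lipid transporter of lamellar bodies, rose from 2.58 to 15.5 FPKM in HF-SC GFP libraries (2.30 ± 0.36, adjusted p = 1.40e-04). Sdr9c7, a dehydrogenase of acylceramide processing, had 18.9, 19.8 and 2.73 FPKM in HF-SC GFP libraries of mice 814, 815 and 817 and at most 2.82 FPKM in HF-SC Co (2.40 ± 0.71, adjusted p = 0.0140). Mouse 817 thus lay within the controls, and the call was lost without mouse 810, 814, 815 or 828 (adjusted p = 0.0648, 0.0777, 0.101 and 0.0609). In HF-SC Co against b-KC Co, 8 of the 9 genes were called lower and 0 higher, where 27.3% and 24.6% of all genes were, with a median of -2.21 beside -0.06.

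Genes of the other steps were called in both directions, and the shares of all genes called in the same comparisons were 38.5% for HF-SC GFP, 44.4% for HF-SC Tom, 41.6% for b-KC GFP and 45.9% for b-KC Tom, with all-gene medians of -0.05, -0.04, -0.03 and -0.02. In the elongation cycle, 6 of 7 listed genes were tested. Their calls, higher and lower, were 3 and 1 for HF-SC GFP, 1 and 1 for HF-SC Tom, 1 and 1 for b-KC GFP and 2 and 1 for b-KC Tom, with medians of 0.41, 0.36, 0.14 and 0.05. With each mouse left out in turn, 2 to 3 were called higher and 0 to 1 lower for HF-SC GFP, 0 to 3 and 0 to 1 for HF-SC Tom, and 1 to 2 and 1 for each b-KC fraction. Tecr, the reductase of the last step of the cycle, which was named after its values were seen, fell in all 4 populations (-0.54, adjusted p = 0.0202 in HF-SC GFP libraries, -0.55, adjusted p = 0.0154 for HF-SC Tom, -0.75, adjusted p = 0.00286 for b-KC GFP and -0.59, adjusted p = 0.0106 for b-KC Tom). Its HF-SC GFP call was lost without mouse 810, 815 or 817 (adjusted p = 0.103, 0.101 and 0.0678) and its HF-SC Tom call without mouse 810 or 815 (adjusted p = 0.0811 and 0.0748). Ptpla, a dehydratase of the cycle, rose in b-KC GFP (1.90 ± 0.36, adjusted p = 9.65e-04) and b-KC Tom (2.20 ± 0.36, adjusted p = 2.22e-04), Ptplb rose in HF-SC GFP (0.84 ± 0.22, adjusted p = 0.00613), and Ptplad2, at 2.58 FPKM or less in each library, rose in HF-SC Tom and b-KC Tom, calls that were lost without mouse 815 (adjusted p = 0.0988 and 0.108) among others. In ceramide synthesis, 10 of 12 genes were tested, and 2 were called higher and 0 lower in mutant HF-SCs, 3 and 1 in non-mutant HF-SCs, and 3 and 2 in each b-KC fraction (medians from -0.18 to 0.14). Without mouse 817 these counts were 3 and 1 in mutant HF-SCs, 4 and 2 in non-mutant HF-SCs, 5 and 3 in b-KC GFP and 4 and 4 for b-KC Tom, and without any other mouse 2 to 3 were called higher and 0 to 2 lower. Of the subunits of serine palmitoyltransferase, the first enzyme of the pathway, Sptlc2 rose in all 4 populations, by 0.95 in b-KC GFP to 1.91 in HF-SC Tom on the log2 scale, with the b-KC GFP call lost without mouse 815 (adjusted p = 0.052), and Sptlc3 fell in non-mutant HF-SCs (-1.37), b-KC GFP (-1.19) and, most of all, b-KC Tom (-1.83). Cers2, a synthase of very long-chain ceramides, rose in HF-SC Tom (0.75) and in the b-KC fractions (1.04 in GFP, 1.15 in Tom).

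Of the genes of sphingolipid turnover, 10 of 12 were tested, and 5 fell in each b-KC fraction with 0 higher (medians -0.51 in GFP and -0.49 in Tom), where 21.3% and 23.3% of all genes were called lower, while 2 were called higher and 1 lower in each HF-SC fraction (medians -0.18 and -0.15). The HF-SC counts depended on the mice, with 2 higher and 4 lower in GFP and 3 and 4 in Tom without mouse 817, and 1 and 0 in GFP without any other mouse. The summed sebocyte, suprabasal and upper follicle markers were also lower in each b-KC library of DKO* mice than in b-KC Co (sebocyte sum 327 to 434 FPKM in Co, 60.8 to 123 FPKM in GFP and 36.3 to 69.7 FPKM in Tom), and their part in the changes of this list was not tested. Acer1, an alkaline ceramidase of the epidermis, had a mean of 141 FPKM in b-KC Co, 49.95 FPKM in b-KC GFP (-1.50 ± 0.23, adjusted p = 1.85e-04) and 30.8 FPKM in b-KC Tom (-2.17 ± 0.23, adjusted p = 4.80e-06). In HF-SCs, Acer1 was called higher in GFP (0.67, adjusted p = 0.0286), where mice 814 and 815 had 26.7 and 23.7 FPKM but mouse 817, at 12.5 FPKM, lay within the 11.6 to 12.7 FPKM of HF-SC Co. This call was held in 1 of the 6 fits that left a mouse out, the fit without mouse 817. With each mouse left out in turn, 2 to 5 genes of this list fell in b-KC GFP and 3 to 5 in b-KC Tom. Acer2, a related ceramidase, rose in HF-SC Tom (1.48, adjusted p = 2.00e-05), and Sgms2, a sphingomyelin synthase, fell there (-1.25, adjusted p = 2.04e-04). The summed endothelial markers were at 451 to 1495 FPKM in HF-SC Tom and 54.5 to 87.2 FPKM in HF-SC Co libraries. Their part in the HF-SC Tom changes of the pathway lists was not tested.

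**Figure D5:**
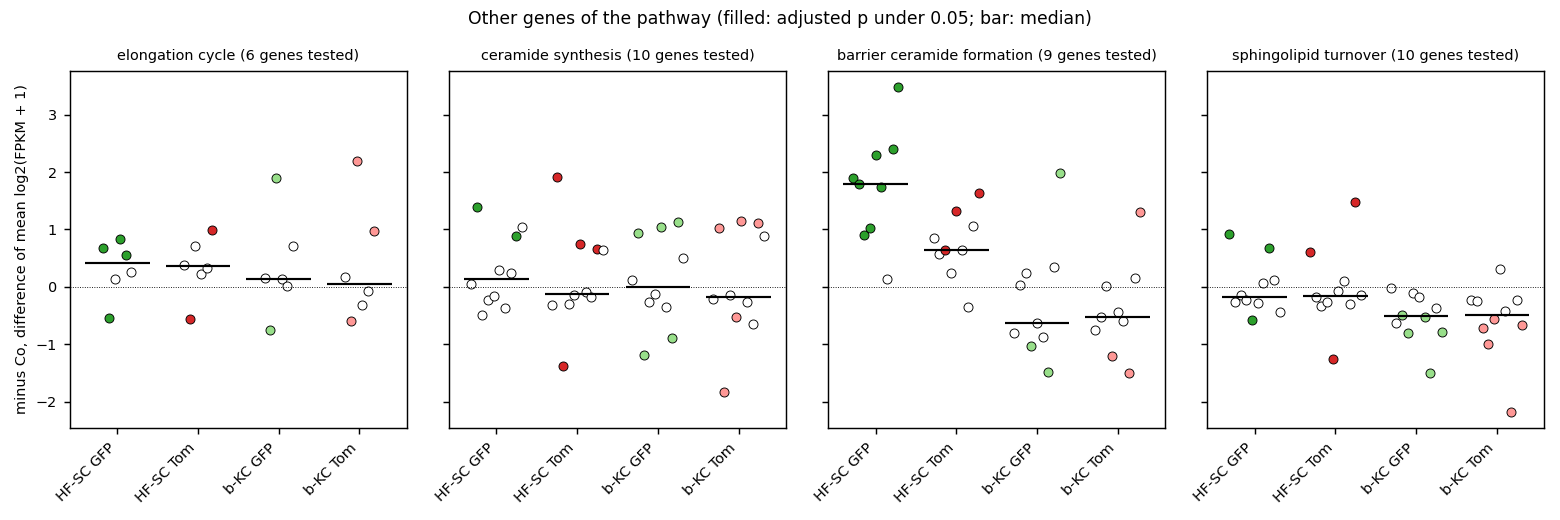
Difference of mean log2(FPKM + 1) from Co for the tested genes of 4 lists around the members, 1 point per gene, filled where called at an adjusted p under 0.05, with the bar at the median. The barrier list is above 0 in HF-SC GFP (median 1.79, 8 of 9 called) and its median is below 0 in both b-KC fractions.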

How the data were processed

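RNA-seq of 18 sorted mouse ear skin libraries in 6 groups was analysed, with groups from the sample labels and none left out. The authors aligned single-end reads of unstranded libraries to NCBI37/mm9 (TopHat 2.0.10, Bowtie 1.0.0) and ran Cufflinks 2.2.1 with mm9 transcripts, and the table they deposited holds FPKM, which are scaled to the length of a transcript and the size of a library. Versions are from the submitters' processing notes, which also list GRCm38 without its role. Read totals were not used. Depth was implied from the steps of low FPKM values, of which 76.4% to 80.7% lay within 0.1 of a whole read, too few to recover reads. Differential expression by the authors used Cufflinks, which needs reads, and limma stood in for it.

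A gene was tested if 3 or more of the 18 libraries had 1 FPKM or more. Values were fitted as log2(FPKM + 1) with limma 3.58.1 in R 4.3.3 (trend, 1 mean per group), with Benjamini-Hochberg adjustment in each comparison and calls at an adjusted p under 0.05. The step was tested on simulated data. Sums, promoter searches and plots used Python 3.11.15, pandas 2.3.3, numpy 2.4.6 and matplotlib 3.10.9. Sequences came from RefSeq (GRCm38.p6), and Cers3 and Cers4 were matched to the mm9 annotation as Lass3 and Lass4. Members and lists were chosen with earlier results of these data known. Genes named beside the members were the up to 3 per pathway list with the largest change from Co among those called, and those with the highest r to each member (up to 3), of which 1 is not reported here.

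The labels give a mouse number to each library, so same-numbered libraries come from the same animal. Across genes, residuals of libraries from the same mouse correlated with r from 0.0838 to 0.70. Alternatives were another pseudocount, no filter, no trend, rescaled libraries, only the groups compared, stricter thresholds, the mouse as a block and each mouse left out.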

Additional observations from a re-analysis of the deposited data

Results flagged for a closer look

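The changes from Co differed between HF-SCs and b-KCs in 5 members for each fraction, by interaction terms in limma, which called 12.5% of all genes tested for GFP and 15.8% for Tom. For GFP, the change in HF-SCs minus that in b-KCs was 4.12 for Fa2h, 3.75 for Elovl3, 2.48 for Elovl4, 2.27 for Elovl6 and 1.36 for Ugcg on the log2 scale. For Tom, it was 3.74 for Elovl3, 3.66 for Fa2h, 2.31 for Cers4, 1.99 for Elovl6 and 1.85 for Ugcg. In the GFP term, Elovl3, Fa2h and Ugcg were each called in 1 of the 6 fits that left a mouse out, the fit without mouse 817, Elovl4 in 5 and Elovl6 in 6. In the Tom term, Elovl3 was called in 1 of the 6 fits, Fa2h in 2, Cers4 in 3, and Elovl6 and Ugcg in 6. Groups of 3 libraries are too small for the check on single outlying samples, which was not run.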

How the results depend on the processing

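Of 37 called member results, all had the same sign in each alternative, and 23 were called in all of them except the 2 stricter thresholds. Over 90 member results and 1290 alternative values, 1129 had the same direction and call, 96 lost the call, 52 gained it, 13 uncalled values changed sign and 0 called values did. At an adjusted p under 0.01 with a log2 change of 2 or more in size, the counts of members were 1 for HF-SC GFP, 0 for HF-SC Tom, 0 for b-KC GFP, 4 for HF-SC Co against b-KC Co, 0 for HF-SC GFP against Tom, 2 for the GFP term and 0 for the Tom term of HF-SCs minus b-KCs, and by the p alone 2 and 2 for these terms. A pseudocount of 0.1 gave 3 and 3, and no filter gave 3 in the Tom term. Fitting only the groups compared gave 4 in HF-SC Tom and 1 in HF-SC GFP against Tom. With the mouse as a fixed block, 1 member was called in HF-SC GFP against Tom and 2 in b-KC GFP against Tom, and as a random block 1 in the latter, 9 in the GFP term and 8 in the Tom term. The calls that the block changed are given in the report, and it changed no other. With each mouse left out, which also leaves fewer samples, the counts were 4 to 8 for HF-SC GFP, 2 to 6 for HF-SC Tom, 3 to 6 for b-KC GFP, 5 to 6 for b-KC Tom, 6 to 9 in HF-SC Co against b-KC Co, 0 to 9 in HF-SC GFP against Tom, 0 to 3 in b-KC GFP against Tom, 1 to 9 in the GFP term and 2 to 8 in the Tom term. In each of these, the highest count was the one without mouse 817, and the cause was not tested. Shares of all genes called were worked out for the fit described above, not for the alternative fits, whose counts have no such share beside them. Rescaling moved the median of all genes by at most 0.08. The lowest member value rested on about 27.0 implied reads, and the 4 DKO* populations came from the same 3 mice.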
